A study of Drosophila melanogaster with 6 samples.

Results

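The 3 libraries of water-injected Drosophila melanogaster embryos were described here, out of 6 libraries in the series, and they were taken by their sample titles. The embryos were of the Oregon R wild-type stock, laid over 0 to 1 h at 25 °C, injected with water before cells had formed, and then kept at 18 °C until they reached the late blastoderm. At that stage pole cells begin to move and the ventral furrow has not yet appeared. About 50 whole embryos, picked by eye for their stage, went into each library of polyadenylated RNA. The other 3 libraries, from embryos injected with eve + runt dsRNA, were not used.

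The early fly embryo first runs on RNAs that the mother placed in the egg, and these are then degraded. During the same period the embryo's own (zygotic) genes are switched on, first a small set of short genes and later many more, among them genes with long introns. At the late blastoderm the cell membranes have just enclosed the nuclei, the cell cycle is paused, and the gap, pair-rule, segment-polarity and dorsoventral genes are drawing the body plan. A gene with a long intron takes longer to transcribe, and the short cycles before the pause leave little time for it.

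Levels are normalised read counts, that is reads per gene divided by a factor of the library, obtained as the deposited value minus 1. The 9073 listed genes took 44461953, 26488720 and 33113717 reads in replicates 1, 2 and 3, and 9, 171 and 18 of them had no read. Replicate 2 therefore had the fewest reads and the most genes without one. It also had the highest share of reads with a non-unique alignment, at 14.8% against 13.04% and 12.6% of all listed reads. Each value of a single library carries a counting error, which intervals given below cover alone.

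Among the most abundant transcripts were those of protein synthesis, the cytoskeleton and the mitochondrion. The elongation factor gene eEF1alpha1 (CG8280; BDGP6 chromosome 2R, 11891135 to 11895762, plus strand), whose product brings aminoacyl-tRNA to the ribosome, had the highest normalised count. It stood at 503929, 462437 and 482004 in replicates 1, 2 and 3, a mean of 482790 ± 20757 (SD, n = 3), and alone held 1.44% of all normalised counts. Next in order of mean normalised count came eEF2, the translocation factor (282997 ± 11420.2), Hsc70-4, a constitutive chaperone (200622 ± 3493), and the actin gene Act5C (188425 ± 8512; SD, n = 3 each). The 10 genes with the highest counts together held 6.12% of all normalised counts, the top 100 held 23.0% and the top 1000 held 69.2%.

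A long transcript gathers more reads than a short one, so genes were compared per kb of exon. By this measure the highest gene was RpL41 (CG30425; BDGP6 chromosome 2R, 24903416 to 24903935, minus strand), which encodes a very short ribosomal protein. Its level was 259443 ± 2802 normalised counts per kb (SD, n = 3). After it came eEF1alpha1 (195937 ± 8424) and the mitochondrially encoded cytochrome oxidase subunits COX3 (165684 ± 14655) and COX1 (115769 ± 8162). Of the 25 highest genes per kb, 16 encoded ribosomal proteins, 3 were translation factors (eEF1alpha1, eEF2 and eEF5), 3 were mitochondrially encoded, 2 were the tubulin genes betaTub56D and alphaTub84B, and 1 was Hsc70-4. Below the first 4 places neighbours lay close together. RpL39, alphaTub84B and RpLP2 had 78417 ± 1921, 78289 ± 4166 and 76810 ± 3119 per kb, and their order lies within these SDs.

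**Figure D1:**
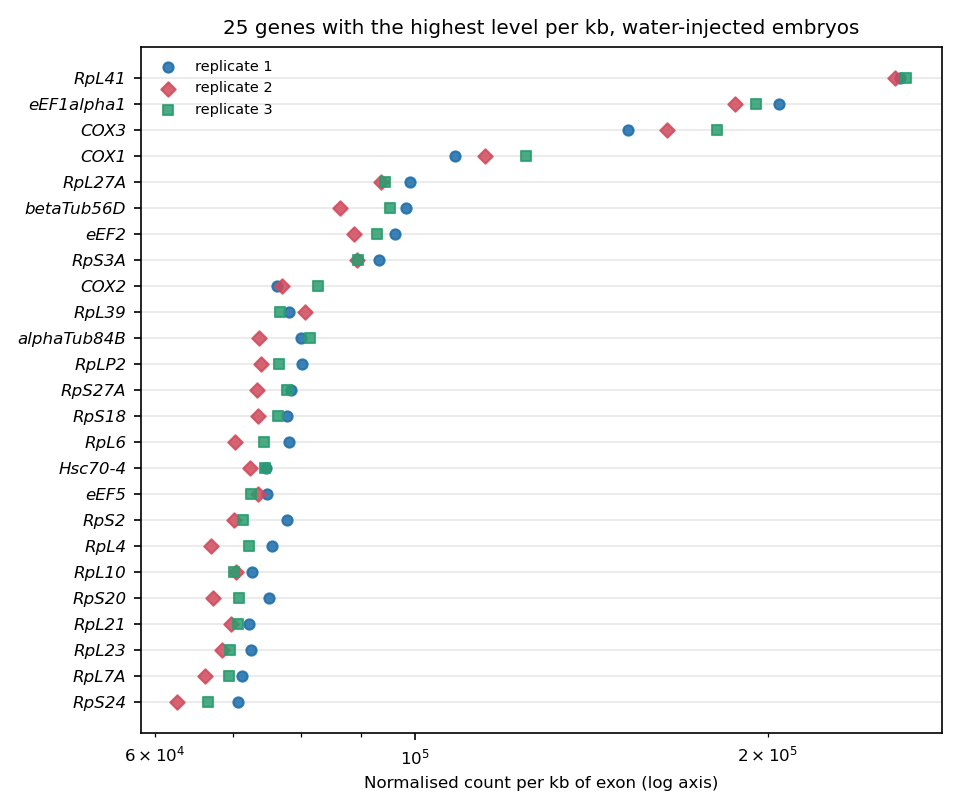
Normalised counts per kb of exon (log axis) in water replicates 1, 2 and 3 for the 25 genes with the highest mean level per kb. The 3 libraries lie close together for each gene, from RpL41 at 259443 per kb down to RpS24 at 66602 per kb.

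The 88 listed ribosomal protein genes held 11.3% of all normalised counts, with a median level of 47475 per kb against 278 over all genes. The list took genes whose symbols begin with RpL or RpS, so ribosomal protein genes with other symbols are left out. Of the 88, 69 were among the 100 highest genes per kb. Of these genes 3 had means under the minimum of 50 used later, among them RpL22-like and RpS19b with means of 3.64 and 11.3 normalised counts. Reads with a non-unique alignment are kept apart from the genes, so levels of near-identical copies are uncertain. Mitochondrially encoded genes took 5 of the 100 highest places per kb. Their level in poly(A)-selected libraries depends on how each transcript is adenylated, so COX1 and COX3 are not compared with nuclear genes beyond this order.

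Zygotic genes of cellularisation were among the abundant transcripts. The gene slam (CG9506; BDGP6 chromosome 2L, 6372388 to 6377284, plus strand) encodes a protein that directs the ingrowing membrane, and it ranked 9 by normalised count. Its values were 145873, 110289 and 150198 in replicates 1, 2 and 3. Per kb, slam, halo and bnk were at 32901 ± 5319, 31343 ± 6753 and 27104 ± 2276, and all 3 were within the top 100. The product of halo regulates lipid-droplet transport, and that of bnk times the closure of the membrane furrows. The list of 10 cellularisation genes had a median of 9181 per kb.

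Maternally loaded RNAs spanned a wide range of levels. Their median was 1824 per kb against 278 over all genes, 1 of 21 listed was in the top 100 per kb, and 6 of 21 were under the median of all genes, among them osk, the germ-plasm organiser, at 172 per kb. The highest of the list per kb was me31B, a helicase of maternal RNA-storage particles, at 38047 ± 4858. The genes tral (a partner of Me31B), smg (the RNA-binding protein that directs clearance of maternal RNAs) and bcd (the anterior determinant) were at 14870 ± 3244, 9507 ± 2743 and 1824 ± 533 per kb. CycB, the mitotic cyclin, stood at 24903 ± 6576 per kb. Of the 22 RNAs listed, nos was not analysed here, and cort had a mean of 29.1 normalised counts, below the minimum used later.

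Patterning genes formed a graded series of levels. Median normalised counts per kb were 1747 for the gap and terminal genes, 1103 for the pair-rule genes, 397 for the head-gap genes, 366 for the neuroectoderm and midline genes, and 260 for the dorsal ectoderm and amnioserosa genes. They were 118 for mesoderm and ventral furrow genes, 60.1 for segment-polarity genes and 8.54 for homeotic genes. Individual genes departed widely from these medians. The gap gene hb reached 4513 ± 240.5 per kb and the segment-polarity gene ptc, the Hedgehog receptor, 1145 ± 624, whereas the homeotic gene Antp was at 23.7 ± 23.6 (SD, n = 3 each).

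Markers of several regions of a late blastoderm were read, at levels that differed widely. The mesoderm genes twi and sna had means of 5812 ± 1609 and 3512 ± 936 normalised counts, and the germ-plasm gene gcl 4869 ± 1681. RNA of gcl is also on the maternally loaded list, so its level alone does not show pole cells. The neuroectoderm genes sog and ind had means of 5582 ± 2228 and 89.0 ± 64.1, and the dorsal ectoderm gene tup 92.0 ± 80.4. Of 12 listed markers of later tissues, 6 had a mean under 50: Mhc and Mlc2 of muscle, nSyb of neurons, repo of glia, Hml of blood cells and GATAe of the gut lay between 1.29 and 34.0 normalised counts in each library. The other 6 (elav, srp, fkh, eya, trh and Obp99a) had means from 53.5 to 2554, with srp, a GATA factor of blood and fat body, the highest. Of 15 eggshell and yolk-protein genes 3 were listed, with summed levels of 28.0, 7.72 and 25.8 in replicates 1, 2 and 3. The other 12 were not analysed here.

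Replicate 2 departed from the other water libraries in a large set of genes, most of them lower. The departure was measured as the log2 ratio of replicate 2 to the mean of replicates 1 and 3, for the 6716 genes with a mean of at least 50 normalised counts over the 3 libraries. In 631 genes (9.4%) replicate 2 was at least 2-fold lower, and in 91 (1.35%) at least 2-fold higher. Between replicates 1 and 3, 8 genes (0.119%) were at least 2-fold lower in replicate 1 and 1 gene (0.0149%) at least 2-fold higher. Against replicate 1 alone, replicate 2 was at least 2-fold lower in 513 genes (7.64%) and higher in 153 (2.28%), and against replicate 3 alone in 729 (10.9%) and 62 (0.923%). With genes chosen anew by their mean without replicate 3, 155 were higher. These are descriptions of 1 library against 2, and no test was made.

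The SD of the log2 ratios over genes was 0.68 for replicate 2 and 0.23 for replicate 1 over replicate 3. The ratios of replicate 2 reached −5.11 on the low side but 1.63 on the high side, although their median of 0.06 lay near 0. For 74.1% of genes the departure of replicate 2 was larger than the difference between replicates 1 and 3. Replicate 2 was below both other libraries in 2409 genes (35.9%) and above both in 3420 (50.9%). Most genes on either side stayed within 2-fold of the mean of the others.

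**Figure D2:**
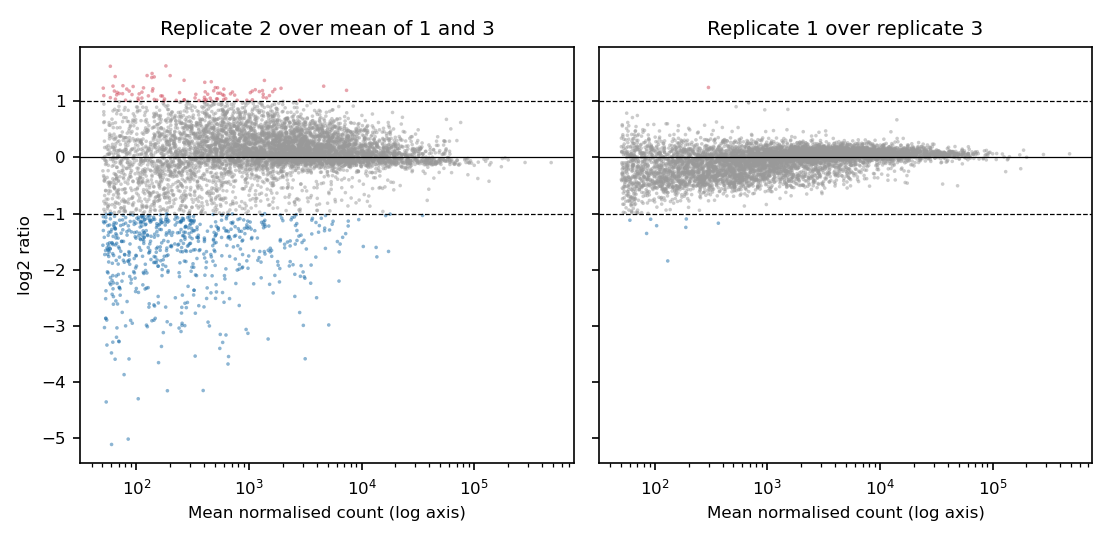
Log2 ratios against the mean normalised count (log axis) for the 6716 genes with a mean of at least 50, with replicate 2 over the mean of replicates 1 and 3 on the left and replicate 1 over replicate 3 on the right. Dashed lines mark 2-fold; blue points (631 on the left, 8 on the right) are at least 2-fold lower and red points (91 and 1) at least 2-fold higher.

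Genes close to the limits show how gradual they are. The gene rho, a protease that releases EGF ligands, was just inside at a log2 ratio of −1.002 with 1497, 828 and 1817 normalised counts, and GCS1 was just outside with 252, 131 and 272. On the high side Bmcp was just inside with 276, 618 and 342, and Hex-A, a hexokinase, just outside with 1488, 3011 and 1528. At the lower limit of level, CG12375 was inside with a mean of 50.4 and CG8369 outside with 49.7.

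Of the 6716 genes, NetB had the lowest ratio of replicate 2. The gene NetB (CG10521; BDGP6 chromosome X, 14686038 to 14749376, minus strand), which encodes a secreted netrin that guides axons, stood at 90.7, 2.57 and 87.4 in replicates 1, 2 and 3. The value in replicate 2 rests on 2 reads, and its log2 ratio of −5.11 has a 95% counting interval of −8.16 to −3.26 from the reads of that library. The gene grn, a GATA transcription factor, stood at 70.3, 3.86 and 180 (log2 ratio −5.02, with an interval of −7.29 to −3.47 from 3 reads). VepD was at 62.7, 3.86 and 95.3 (log2 ratio −4.36, −6.63 to −2.81, also from 3 reads). In all 3 genes replicate 2 lay far under both other libraries, and in grn replicates 1 and 3 also differed, with a log2 ratio of −1.35.

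The homeotic gene Antp (CG1028; BDGP6 chromosome 3R, 6896253 to 6999228, minus strand), which specifies thoracic segments, stood at 163, 15.4 and 387, a level 17.8-fold lower in replicate 2. Dscam1 (CG17800; BDGP6 chromosome 2R, 7317924 to 7381899, minus strand), a neuronal immunoglobulin-family receptor, stood at 755, 73.4 and 1125 and was 12.8-fold lower. The most abundant of the 15 lowest genes was dan (CG11849; BDGP6 chromosome 3R, 25184383 to 25192806, plus strand), a transcription factor of antennal identity. It had 3875, 378 and 5214 normalised counts, a log2 ratio of −3.59 with a counting interval of −3.76 to −3.42 from 294 reads.

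The others of the 15 were Trim9 (a ubiquitin ligase of neurons), if (an integrin alpha subunit), gsb (a segment-polarity transcription factor), Dll (the limb selector), stumps (the adaptor of the FGF receptor), zfh2 (a zinc-finger homeodomain protein), beat-IIIc (of the Beat family), CG32982 and CG10663. The 15 were 11.2-fold to 34.6-fold lower in replicate 2. In 14 of the 15, replicate 1 was also below replicate 3, against 49.4% of all 6716 genes. The same held in 13 of the genes with the 15 highest ratios, so it was not particular to the lowest.

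**Figure D3:**
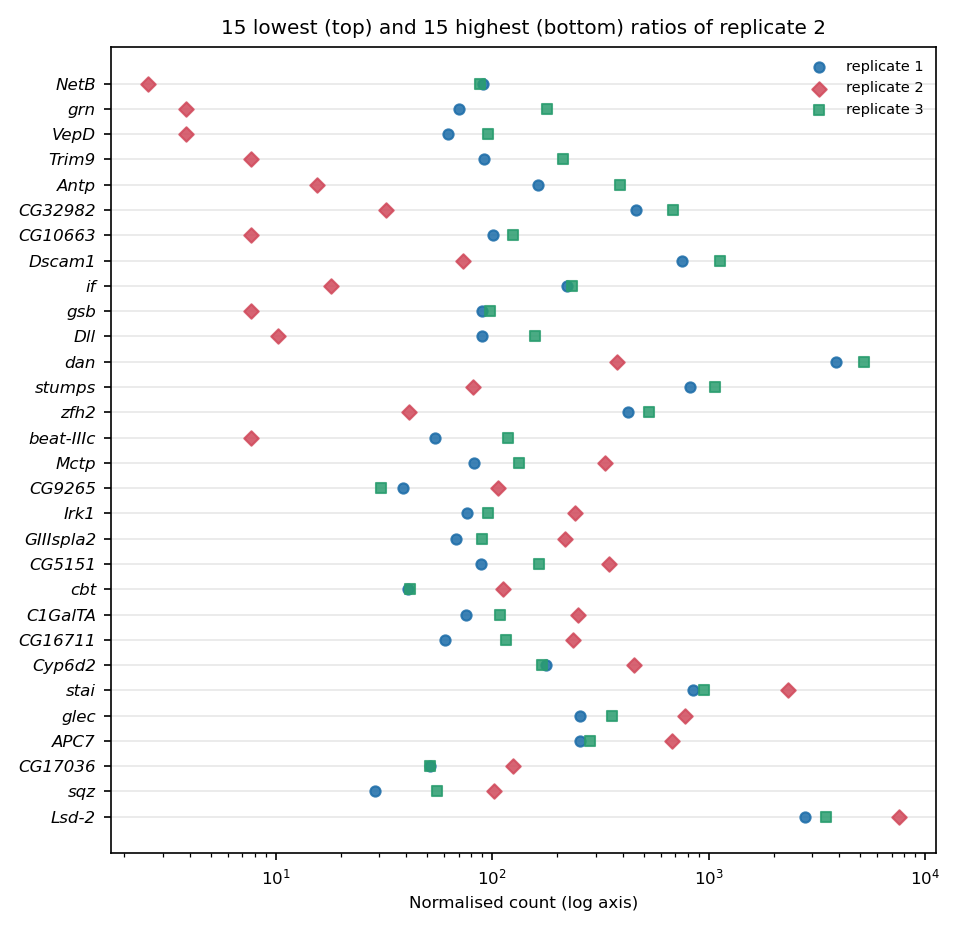
Normalised counts (log axis) in water replicates 1, 2 and 3 for the genes with the 15 lowest ratios of replicate 2 (upper rows, NetB to beat-IIIc) and the 15 highest (lower rows, Mctp to Lsd-2). Replicate 2 lies 11.2-fold to 34.6-fold below the mean of the others in the upper rows, and 2.41-fold to 3.09-fold above it in the lower rows.

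The share of genes at least 2-fold lower in replicate 2 was highest at low levels. It was 28.3% of genes with a mean of 50 to 200 normalised counts, 12.1% at 200 to 1000, 4.03% at 1000 to 5000, 1.54% at 5000 to 20000 and 0.291% above 20000. This mean includes replicate 2, so a low value there also moves a gene to a lower level. Genes such as NetB reached the minimum mean only through replicates 1 and 3. Level and ratio are thus not independent here. Of 3834 genes with a mean of at least 1000, 111 (2.90%) were at least 2-fold lower and 17 (0.443%) at least 2-fold higher. Among these 111 were mira, an adaptor of neural stem cells (11947, 4434 and 14682 in replicates 1, 2 and 3), crb, which organises the apical membrane (8093, 4239 and 10518), and ci, the transcription factor of Hedgehog signalling (5864, 911 and 8555). In all 3 genes replicate 2 was the lowest library and replicate 3 the highest. These examples were chosen after their values were seen.

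The 15 highest ratios of replicate 2 were smaller in size than the 15 lowest. The gene stai (CG31641; BDGP6 chromosome 2L, 6100377 to 6124653, plus strand), the gene of the tubulin-binding protein stathmin, stood at 841, 2320 and 952 and was 2.59-fold higher in replicate 2. The most abundant of the 15 was Lsd-2 (CG9057; BDGP6 chromosome X, 15069127 to 15076220, minus strand), a perilipin on lipid droplets, with 2778, 7552 and 3490, a 2.41-fold higher level. Mctp, a membrane protein with C2 domains, had the largest ratio, 3.09-fold, with 82.4, 333 and 133. In these 3 genes replicate 2 lay above both other libraries.

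The rest of the 15 were Irk1 (a potassium channel), GIIIspla2 (a secreted phospholipase A2), cbt and sqz (zinc-finger transcription factors), C1GalTA (a galactosyltransferase), Cyp6d2 (a cytochrome P450), glec (the surface protein gliolectin), APC7 (a subunit of the anaphase-promoting complex), CG9265, CG5151, CG16711 and CG17036. Below them, and chosen after their values were seen, stood genes known for their work in the ovary: yl, the yolk-protein receptor of the oocyte (699, 1705 and 804), egl, which links RNAs to the dynein motor (886, 2095 and 1033), and bru1, a translational repressor of osk (880, 2582 and 1413). Each of these 3 was at least 2-fold higher in replicate 2 than the mean of the others. They were picked from the 91 genes (1.35%) past this limit. Of 20 maternally loaded RNAs with the minimum mean, 0 were at least 2-fold higher. Of the same RNAs 19 were above both other libraries, against 50.9% of all genes. The 3 listed eggshell and yolk-protein genes, all under the minimum mean, summed to 28.0, 7.72 and 25.8, lowest in replicate 2. These are 3 of the 15 genes of that list. With 1 read of replicate 2 worth 1.29 normalised counts, its sum rests on few reads.

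Maternally loaded RNAs lay above 0 as a list. Of 20 with the minimum mean, 19 were higher in replicate 2 than in both other libraries, against 50.9% of all genes, 0 of 20 passed 2-fold, and the median log2 ratio was 0.55 against 0.06 over all genes. The kinase subunit gene gnu, needed for the first nuclear divisions, stood at 667, 1378 and 737 and was 1.96-fold higher in replicate 2. The values of swa, which localises bcd RNA, were 1956, 3930 and 2084. Those of wisp, the poly(A) polymerase of egg activation, were 14409, 26296 and 15780, and those of smg were 47186, 75575 and 47301. In all 4 genes replicates 1 and 3 lay close together and replicate 2 stood apart. The exception was Hsp83, at 10455, 10984 and 13862, for which replicate 2 lay between the others.

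Cell-cycle regulators and glycolytic enzymes had positive medians too, of 0.35 and 0.46. CycB stood at 63677, 99005 and 64952, and stg, the phosphatase that starts mitosis after the pause, at 1884, 4345 and 2945. BigH1, the linker histone of the early embryo, stood at 3581, 5687 and 3476. Among the glycolytic enzymes Hex-A, a hexokinase, was at 1488, 3011 and 1528, whereas Pgi went the other way with 565, 243 and 662. Replicate 2 was above both others in 9 of 13 cell-cycle genes and in 9 of 12 glycolytic enzymes, against 50.9% of all genes.

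Most patterning genes lay below 0, and the homeotic list lay furthest. Of the 4 homeotic genes with the minimum mean, 4 were at least 2-fold lower in replicate 2 (median log2 ratio −2.76), against 9.4% of all genes. Of these, Antp, Dfd and Abd-B reached the minimum mean only through replicates 1 and 3, so this count is not independent of the minimum. Over all 8 listed homeotic genes, of which 4 had a lower mean, the median was −2.33, with lab and pb nearest to 0 at −0.70 and −0.89. The values of Dfd were 176, 25.7 and 211, those of Abd-B 58.2, 14.2 and 115.2, and those of abd-A 159, 70.8 and 207. Segment-polarity genes had a median of −1.43, with 7 of 7 below both other libraries and 4 of 7 at least 2-fold lower. The Wingless antagonist nkd stood at 1763, 224 and 2452 and ptc at 7085, 2557 and 9323. In each of these 5 genes replicate 2 was the lowest and replicate 3 the highest.

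The pair-rule genes had a median of −1.12, with 9 of 9 below both other libraries and 6 of 9 at least 2-fold lower, against 35.9% and 9.4% of all genes. The furthest was opa, a zinc-finger gene that acts late among them, at 3385, 539 and 5192. The 12 gap and terminal genes were less far from 0, with a median of −0.38 and 3 of 12 at least 2-fold lower, a share of 25%. Here hb (18244, 17275 and 16400) and tll (4774, 3979 and 4247) were nearly level, and cad (5498, 7453 and 5533) was higher in replicate 2. The 3 genes past 2-fold were knrl, pdm2 and nub.

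Along the dorsoventral axis the ratios spread widely within each list. Of 13 dorsal ectoderm and amnioserosa genes 7 were at least 2-fold lower (median −1.01), against 9.4% of all genes. The transcription factor genes tup and pnr stood at 82.4, 16.7 and 177 and at 163, 61.8 and 348. The BMP ligand gene scw was higher instead, with 6481, 8090 and 5721. Of 12 mesoderm and ventral furrow genes 5 were at least 2-fold lower and 1 higher (median −0.73), against 9.4% and 1.35% of all genes. The 4 components of FGF signalling in this list were all lower: the ligands ths (322, 47.6 and 438) and pyr (263, 54.1 and 349), the receptor htl (410, 68.2 and 523) and stumps (822, 81.1 and 1073). The furrow ligand fog (1726, 2866 and 1835) and the muscle transcription factor Mef2 (301, 833 and 454) were higher.

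Across all genes, 9.4% were at least 2-fold lower and 35.9% below both other libraries. Of 11 neuroectoderm and midline genes 6 were at least 2-fold lower (median −1.002), among them the column gene ind at 111, 16.7 and 139 and the BMP antagonist sog at 6232, 3102 and 7413. The Bearded and E(spl) genes, which modulate Notch signalling, had a median of −0.93 with 4 of 8 at least 2-fold lower. The Halloween enzymes of ecdysteroid synthesis had a median of −0.94, with 5 of 5 below both other libraries; dib stood at 577, 122 and 815. Of the listed later-tissue markers that reached the minimum mean, 4 of 6 were at least 2-fold lower: elav (494, 87.5 and 614), srp (2892, 809 and 3961), fkh (1843, 652 and 2269) and eya (62.0, 10.3 and 88.4). Of these, eya reached that mean only through replicates 1 and 3. Summed over the 12 listed markers of that list, the level was 5699, 1862 and 7342, most of it from srp and fkh. The markers Mhc, Mlc2, nSyb, repo and Hml were under the minimum mean, so these values do not show RNA of later tissues as such. In whole embryos a smaller number of expressing cells and less RNA per cell cannot be told apart.

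Cellularisation genes were lower by less. Their median log2 ratio was −0.57, with 8 of 10 below both others, against 35.9% of all genes. At least 2-fold lower was 1 of 10, RhoGEF2, a share close to the 9.4% of all genes. The mitotic inhibitor Z600, which holds the pause of the cell cycle, stood at 12601, 7606 and 13568, and nullo at 5348, 6306 and 4558. Genome activators and X-counting genes had a median of −0.15 and none of 12 past 2-fold. Abundant housekeeping lists lay near 0, with medians of −0.08 for ribosomal proteins, −0.08 for translation factors, −0.05 for nuclear oxidative phosphorylation genes and 0.02 for proteasome subunits. None of the 85 ribosomal protein genes with the minimum mean passed 2-fold, but 75 of 85 were below both other libraries, against 35.9% of all genes.

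**Figure D4:**
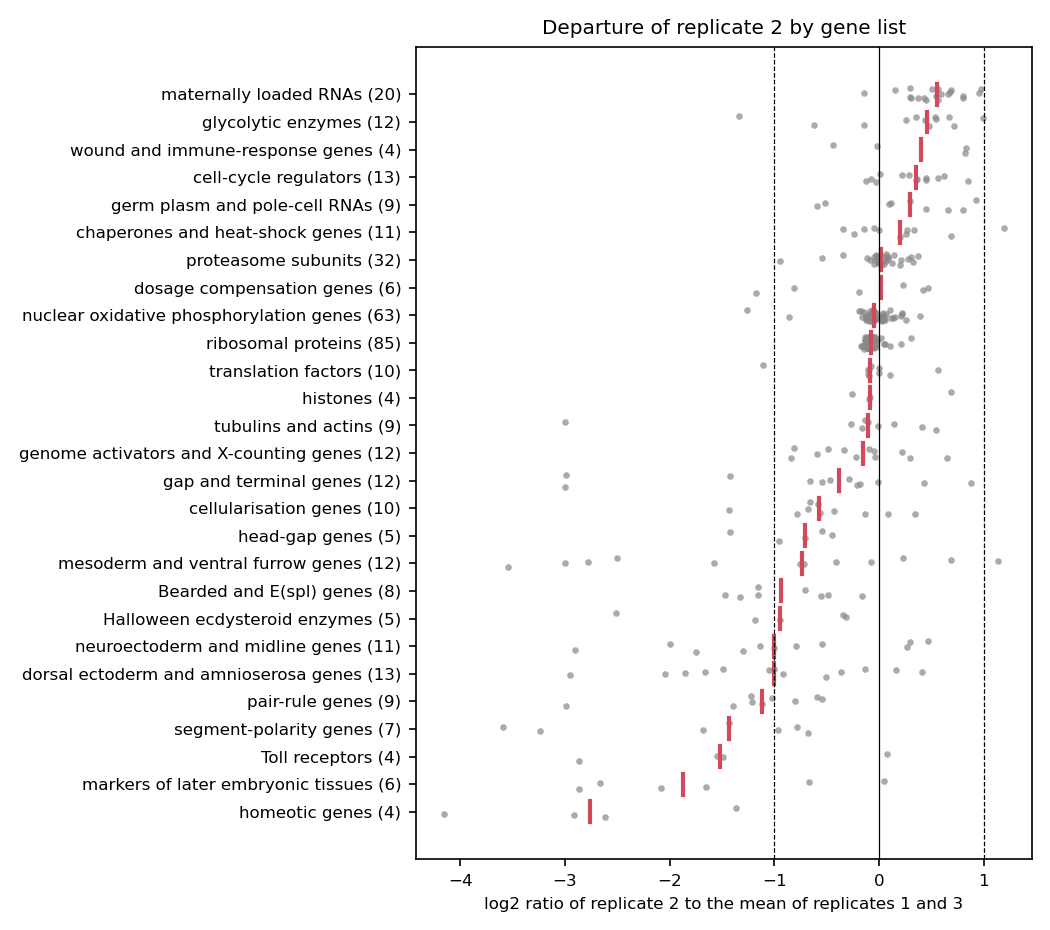
Log2 ratio of replicate 2 to the mean of replicates 1 and 3 for each list member with a mean of at least 50 (grey points; their number in brackets), with the list median as a red bar; lists are ordered by median. Medians run from −2.76 for homeotic genes to 0.55 for maternally loaded RNAs, and those of ribosomal proteins and proteasome subunits lie at −0.08 and 0.02. The minimum mean includes replicate 2, so entry to a list and ratio are not independent.

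Stress and injury genes showed no common direction. The small heat-shock gene Hsp27, which the ovary also expresses, stood at 4745, 11774 and 5542, whereas Hsp26 was at 714, 837 and 688 and Hsp23 at 859, 737 and 1012. The wound and immune list had 4 members with the minimum mean. Of these puc, a phosphatase of the JNK pathway, was at 780, 1504 and 917 and msn, a kinase of the same pathway, at 23683, 22889 and 22553.

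Replicates 1 and 3 differed less, but with an order that ran alongside. Among the 631 genes at least 2-fold lower in replicate 2, replicate 1 was below replicate 3 in 615 (97.5%), against 49.4% of all 6716 genes. Their median log2 ratio of replicate 1 to replicate 3 was −0.40, and for the homeotic list it was −0.68. For these genes the usual order was thus replicate 2 lowest, replicate 1 between and replicate 3 highest. Among the 91 genes at least 2-fold higher in replicate 2, replicate 1 was below replicate 3 in 78 (85.7%), so there the order did not reverse. The maternally loaded RNAs had a median of 0.02 for replicate 1 over replicate 3.

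Gene span, the length of the gene with its introns, differed between genes that were lower in replicate 2 and the rest. Of 2228 genes spanning under 2 kb, 7.05% were at least 2-fold lower in replicate 2. This share was 8.04% at 2 to 5 kb, 10.4% at 5 to 10 kb, 14.3% at 10 to 20 kb, 17.6% at 20 to 50 kb and 16% of 150 genes over 50 kb. Among the 15 lowest genes 11 spanned at least 20 kb, against 508 (7.74%) of 6564 genes with a known span. The share at least 2-fold higher also differed with span, from 0.494% under 2 kb to 3.22% at 10 to 20 kb and 2% over 50 kb. The median ratio did not go down with span: it was 0.00 under 2 kb and 0.15 at 20 to 50 kb, so a subset of the long genes carried the low ratios.

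The paralogues kni and knrl, which encode closely related nuclear receptors, differ in span, at 3049 and 23519 bp. The short gene kni stood at 4876, 3501 and 4795 normalised counts and the long gene knrl at 544, 78.5 and 713, with log2 ratios of −0.47 and −3.001. The pair is an example picked with its values known. These genes differ in level as well as in span, so the parts of level and span cannot be told apart in it. Short genes were also among the lowest: gsb spans 2680 bp and ind 1126 bp. At levels from 50 to 500 normalised counts, 33.6% of genes spanning over 20 kb and 19.6% of those under 5 kb were at least 2-fold lower. At levels from 500 to 5000, 17.9% of genes spanning over 20 kb and 2.49% of those under 5 kb were at least 2-fold lower. Above 5000 these shares were 1.20% and 0.821%. These levels, too, are means that include replicate 2. Exon length moved with the share as well, from 5% of genes with under 1 kb of exon to 14.1% of those with over 5 kb, and the parts of span and exon length were not told apart.

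**Figure D5:**
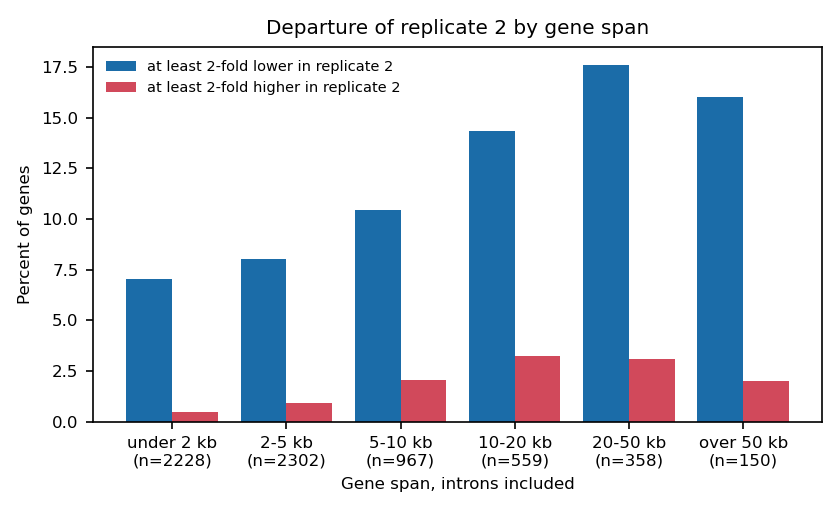
Percent of genes at least 2-fold lower (blue) and at least 2-fold higher (red) in replicate 2 than the mean of replicates 1 and 3, by gene span in the BDGP6 annotation; n is the number of genes with a mean of at least 50. The blue bars go from 7.05% under 2 kb to 17.6% at 20 to 50 kb, and the red bars stay between 0.494% and 3.22%.

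By chromosome arm, the median log2 ratio of replicate 2 was 0.14 for the 1146 X-linked genes and between 0.01 and 0.06 for arms 2L, 2R, 3L and 3R and chromosome 4. On the X, 6.11% of genes were at least 2-fold lower and 2.09% at least 2-fold higher. On the 4 large autosome arms the shares lower were 9.32% to 10.6% and the shares higher 0.867% to 1.38%. Replicate 2 was above both others in 60.6% of X-linked genes and in 45.7% to 51.0% of genes on these arms. The 6 dosage compensation genes listed had a median of 0.02, with 3 of 6 above both other libraries, 3 of 6 below both and 1, msl-2, at least 2-fold lower. Over all genes these shares were 50.9%, 35.9% and 9.4%, and 6 genes do not set the list apart from them. The gene msl-2, which male embryos need to raise X transcription, stood at 2797, 1443 and 3734, and Sxl, the female switch gene, at 5402, 3314 and 6259. The sex of the pooled embryos is not given for any library.

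The labels give the same collection window, temperature and stage for the 3 libraries and no age of single embryos. Replicate 2 had the lowest read depth and the highest share of non-unique alignments as well as these ratios. The part of embryo age, of depth or of any handling of this library in its departure was not tested.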

How the data were processed

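Per the submitters' processing notes, the tools were Bowtie2, TopHat2 (2.0.9), HTSeq and DESeq on build dm3; neither their settings, nor strand handling, nor the gene annotation used is given there. The values deposited by the authors are a normalised signal per gene. After subtracting 1, all values (100%) were within 0.01 read of whole steps of the library, so gene reads were obtained by dividing out the step. The 3 rows that name no gene stayed out, and held 12.6% to 14.8% of all listed reads with a non-unique alignment, 0.720% to 0.750% ambiguous and 4.32% to 4.91% outside genes. The dsRNA columns were not used. Columns of other samples numbered 0.

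Symbols came from RefSeq (Release 6 plus ISO1 MT), which matched 8985 of 9073 CG numbers. Exon length (union of exons), gene span and positions came from BDGP6, release 115, matched by name for 8792 genes; the authors used another build, and coordinates were not converted. Genes whose symbol is shared by several CG numbers (192) got no length. Exon overlap was checked for the 58 genes named for the highest levels or for the lowest or highest ratios. Of these, 17 have an exon that another gene overlaps, 7 of them on the same strand, among them Antp and VepD. Genes named only as list members were not checked.

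Ratios were computed in Python 3.11.15 with pandas 2.3.3 and checked on simulated reads. Named genes were the 25 highest per kb, the 10 highest counts, the 15 lowest and highest ratios that exceed the difference of replicates 1 and 3, and in each list the 4 largest absolute ratios and the 3 highest levels; other list members were named as examples after their values were seen. Members, lists and rules were chosen with earlier results of these data known. There was 1 library on one side, so no test was made. Nothing says that replicates were separate collections, so their SDs may be technical. Counting intervals (95%, exact Poisson) cover counting error of replicate 2 only. A planned description of promoter motifs was not run, because it needs sequence not used here.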

Additional observations from a re-analysis of the deposited data

How the results depend on the processing

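The direction of the departure, with more genes at least 2-fold lower than higher in replicate 2, was the same under all 9 alternatives. The counts moved with the minimum mean: 1027 genes were lower with a minimum of 10, 332 lower and 52 higher with a minimum of 200, and 1573 lower and 197 higher with no minimum. A 1.5-fold limit gave 958 lower and 606 higher. With replicate 1 or replicate 3 alone as the reference, 442 to 714 genes were lower and 62 to 155 higher, the last without replicate 3. Another scaling, or keeping the 1 in each value, gave 630 to 655 lower and 73 to 89 higher, and moved the median of all genes by at most 0.04 (log2). Of 27 lists with at least 3 members, 12 had a median of −0.5 or lower and 1, the maternally loaded RNAs, of 0.5 or higher; this last number was 2 with a minimum of 200, and 0 to 1 on leaving out replicate 1 or 3. The median of the chaperone list turned to −0.04 without replicate 1 or with no minimum, and that of the wound and immune list to −0.23 with a minimum of 10 and −0.44 with none; those of 3 lists within 0.05 of 0 also changed sign. Ribosomal proteins of the list, taken by symbol, made up 8 in place of 16 of the 25 highest genes without a length correction. The same 25 genes were highest without replicate 1, 2 or 3, and 23 of them with the longest transcript as length. The causes were not tested. No paired analysis was possible because only 1 group was used. Depth limits the ratios of genes with few reads in replicate 2, such as the 2 reads of NetB.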
